A study of Mus musculus with 8 samples.

Results

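Cytoplasmic ribosomal protein genes were described in DC2.4, an immortalised dendritic cell line of the mouse. Members were the rows of the deposited gene table whose symbol has the standard form of a large-subunit (Rpl) or small-subunit (Rps) protein gene, with the stalk genes Rplp0, Rplp1 and Rplp2 and with Rpsa, and without rows named as pseudogenes. This gave 85 of 24054 rows, 52 of the 60S and 33 of the 40S subunit. The rule reads symbols and no measured value. All cells were kept for 4 h in medium with 0.1% serum. They were then exposed for 4 h to 250 PNU/ml (protein nitrogen units) of house dust mite extract (HDM), of timothy grass extract (Grass) or of cat hair extract (Cat), or were left untreated (Untreated). The labels name no vehicle for the untreated cells and give the strain of the line as C57BL/6. Each group held 2 libraries, described as independent in the design text. No label says whether they came from separate cultures, so the p-values measure the spread between these samples.

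Ribosomal proteins assemble with ribosomal RNA into the subunits that decode mRNA and join amino acids. They are needed in equal numbers, and their mRNAs are among the most abundant of a growing cell. Most of these mRNAs begin with a 5' terminal oligopyrimidine (TOP) element, a C followed by further pyrimidines, through which the kinase mTOR and the protein LARP1 set how well they are translated and how long they are kept. A few members have a close paralog that is used in particular tissues, and several have known roles outside the ribosome. In a dendritic cell, protein synthesis shifts when the cell senses a foreign product, largely at the level of translation, which mRNA levels do not show.

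The start of a TOP mRNA is a sequence. It is shown here because most members with a promoter have a match near the annotated start and the choice of rows did not use it. Promoters came from RefSeq (GRCm38.p6, while the submitters' processing notes name mm9), as windows of 300 bases from 250 before to 50 after the annotated start. They were matched by symbol for 64 members. The promoters of the other members were not analysed here. The lines give 60 bases, 40 before and 20 from the annotated start, 5' to 3', with the TOP match in capitals. A TOP match was a C followed by at least 4 further pyrimidines that begins within 10 bases of the start. The first 6 genes are shown because they are among the members called lower, and each has a match.
Rpl13a, chr7:45128726-45128785, minus strand: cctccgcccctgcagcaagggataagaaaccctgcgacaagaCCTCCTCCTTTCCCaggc
Rpl35, chr2:39005112-39005171, minus strand: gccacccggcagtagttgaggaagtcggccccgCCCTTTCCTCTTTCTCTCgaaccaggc
Rps10, chr17:27635225-27635284, minus strand: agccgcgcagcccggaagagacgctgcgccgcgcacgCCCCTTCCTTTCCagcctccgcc
Rpl38, chr11:114668540-114668599, plus strand: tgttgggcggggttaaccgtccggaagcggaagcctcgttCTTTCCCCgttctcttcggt
Rps27, chr3:90213629-90213688, minus strand: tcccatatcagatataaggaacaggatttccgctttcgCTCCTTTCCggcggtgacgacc
Rps6, chr4:86857348-86857407, minus strand: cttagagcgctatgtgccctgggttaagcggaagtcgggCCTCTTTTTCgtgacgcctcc
The paralogs Rpl22l1 and Rps27l, which had much lower values than their partners, also have one. That of Rps27l, 7 bases from base −10, lies wholly before the annotated start.
Rpl22l1, chr3:28805468-28805527, plus strand: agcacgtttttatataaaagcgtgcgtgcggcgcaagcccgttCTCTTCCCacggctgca
Rps27l, chr9:66946046-66946105, plus strand: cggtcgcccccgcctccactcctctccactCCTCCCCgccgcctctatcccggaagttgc
Rps28 and Rplp0 have no match that begins within 10 bases of the start. The Rplp0 line does hold the run ctcct, which begins further after the start. They are shown because Rps28 differed between extracts and Rplp0 had the highest value.
Rps28, chr17:33824543-33824602, minus strand: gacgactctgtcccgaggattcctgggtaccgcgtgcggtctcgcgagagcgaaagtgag
Rplp0, chr5:115559427-115559486, plus strand: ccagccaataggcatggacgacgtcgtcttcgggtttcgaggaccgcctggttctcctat
A TOP match was found for 39 of the 64 members (60.9%), against 37.2% of the 8693 tested genes with a promoter. It was found for 34.4% of all 27025 genes with a promoter. These shares count a gene if any of its promoters has a match. Counted by single promoter, the share was 30.7% of all 32851 promoters. Some of these matches, such as those of Rps27l, Rpl10a, Rpl6 and Rpl22, lie wholly before the annotated start. Such a match is in the mRNA only if transcription begins further upstream, and the start used by these cells was not measured. The run in the printed lines was 18 bases long in Rpl35, 14 in Rpl13a and 8 in Rpl38.

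Other motifs were searched on both strands of the 300 bases. Shares of members and of tested genes count a gene if any of its promoters has a match. Shares of all promoters count single promoters. The GABP and ETS motif CCGGAAG was in the promoters of 40.6% of the members, against 21.6% of tested genes and 8.86% of all promoters. The YY1 motif AAGATGG was in 15.6% of the members, against 8.79% of tested genes and 6.34% of all promoters. The SP1 motif GGGCGG was in 62.5% of the members, 69.3% of tested genes and 35.7% of all promoters. The TATA box TATAAA was in 7 members (10.9%, against 8.36% of tested genes and 13.6% of all promoters), Rpl22, Rpl22l1, Rpl36a, Rpl39, Rplp0, Rps2 and Rps28. The E-box CACGTG was in 9.38% of the members, 12.1% of tested genes and 7.15% of all promoters. A match is a description of the letters and not evidence of binding.

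The deposited values are depth-scaled reads, from which whole reads could be recovered. Libraries held 41802968 and 31938460 reads in HDM, 43316229 and 37019459 in Grass, 35280107 and 36216180 in Cat, and 35809437 and 35901419 in Untreated. Values are in the deposited unit, reads scaled to a common depth. Of 16 dendritic cell markers, 13 passed the filter on low values. Csf1r ranged from 490.8 to 523.4 over the 8 libraries and Itgax from 2.57 to 3.29. The class II gene H2-Ab1 had 0 reads, while H2-Aa and Flt3 did not exceed 0.0944. The marker list summed to 1352 and 1315 in HDM, 1306 and 1295 in Grass, 1290 and 1298 in Cat, and 1408 and 1405 in Untreated libraries, so on the deposited scale each allergen library summed to less than both untreated ones. Most of the sum came from Csf1r, Ptprc, Itgam and Cd74, and over the 13 tested markers the median log2 fold change was 0.052 (HDM), 0.013 (Grass) and −0.021 (Cat), or 0.131, 0.097 and 0.034 with libraries scaled to their total reads. The part of these markers in the results was not tested, and in bulk RNA fewer cells of a type and less RNA per cell cannot be told apart. Markers of B cells (0 of 4) and of fibroblasts or epithelium (0 of 7) did not pass the filter, and of 4 T cell genes only Cd8a did.

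Of the 85 genes, 81 passed the filter (a value of at least 0.5 in at least 2 libraries), 49 of the 60S and 32 of the 40S subunit. The 4 that did not are paralogs. Rpl10l, a testis form in mammals, had 0 reads in all 8 libraries, which allows up to 3 reads, or a value of 0.0677 to 0.0923 by library. Rpl39l reached 4 reads in 1 Grass library, Rpl3l, a muscle form of Rpl3, 5 reads at most, and Rps4l 1 read. Reads without molecular identifiers are not independent molecules, so these limits cover counting error only. The 81 tested genes had mean values of 49.3 (Rpl22l1) to 2188 (Rplp0), from 1582 to 95176 reads a library, and 80 of them had a mean of at least 100.

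The 5 highest were Rplp0, Rps2, Rpl4, Rpsa and Rps3a1, with mean values of 2188, 2019, 1811, 1733 and 1439. Rplp0 is the base of the ribosomal stalk, Rps2 lies at the entry of the mRNA channel, Rpl4 lines the exit tunnel, Rpsa doubles as the laminin receptor precursor, and Rps3a1 is a 40S protein. Per kilobase of annotated transcript the order changed. Rps2 had the highest level, 2023 per kb, followed by Rps27 with 1837 per kb. The stalk genes followed with 1612 (Rplp0), 1587 (Rplp1) and 1501 (Rplp2) per kb. Without the paralogs, the 77 members had a median level of 897.2 per kb, with quartiles of 687.7 and 1162 per kb. The lowest of these was Rps20, with 129.3 per kb, and among all 81 tested members the paralog Rpl22l1, with 89.3 per kb. Levels per kb depend on the annotated length, which for Rps20 is 3706 bases, and the length used by these cells was not measured.

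Together the 85 genes took 5.66% and 5.62% of reads in HDM libraries, 5.63% and 5.82% in Grass, 5.58% and 5.52% in Cat, and 5.53% and 5.74% in Untreated libraries. The 95% Wilson intervals were at most 0.016 percentage points wide. The groups overlapped: both HDM libraries lay between the 2 untreated ones, 1 Grass library lay above them and 1 Cat library below. Mean shares were 5.64 ± 0.024% in HDM, 5.72 ± 0.13% in Grass, 5.55 ± 0.042% in Cat and 5.63 ± 0.15% in Untreated libraries (SD, n = 2 each). The share did not separate any extract from untreated cells beyond the spread between the 2 untreated libraries.

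On the deposited scale the same genes summed to 55788 and 55255 in HDM, 55025 and 56710 in Grass, 55919 and 55170 in Cat, and 57071 and 60071 in Untreated libraries. Here each of the 6 allergen libraries was under both untreated ones. The 2 measures differ because the deposited values were divided by an effective library size. That size was 1.014 and 1.018 of the library total in HDM, 1.023 and 1.025 in Grass, 0.998 and 1.001 in Cat, and 0.969 and 0.955 in Untreated libraries. The second untreated library was the highest of all 8 for 78 of the 81 genes. It exceeded the first for 79 of 81, by a median of 0.078 on the log2 scale, against 0.012 over all tested genes.

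**Figure D1:**
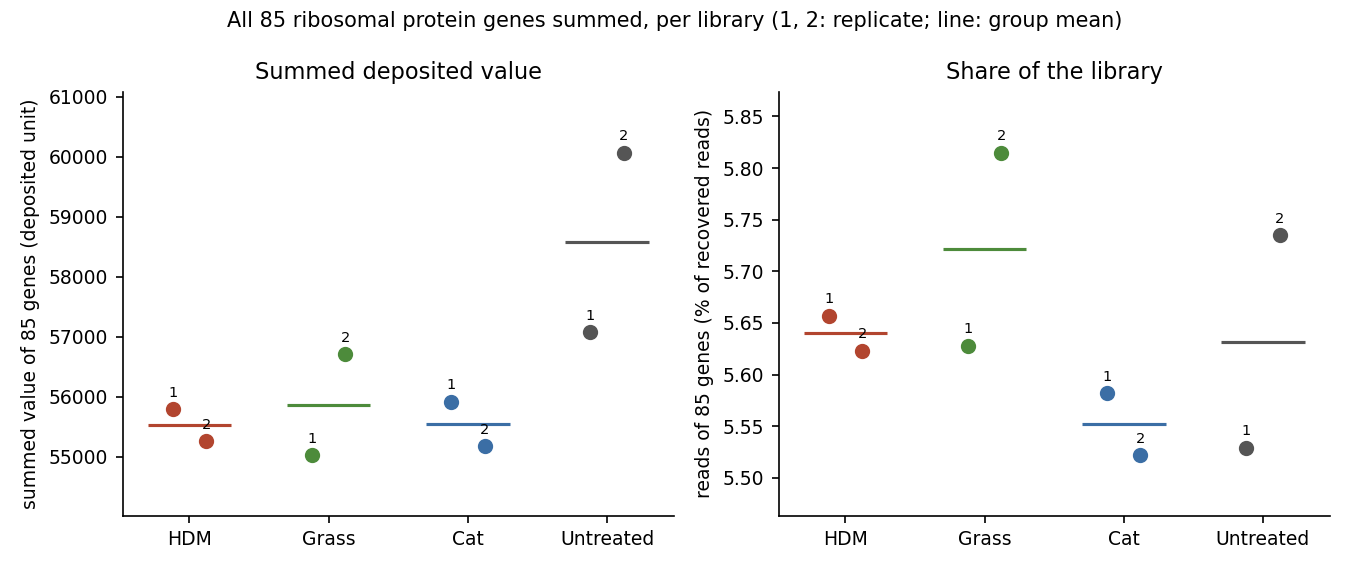
Sum of the 85 ribosomal protein genes in each library, as the deposited value (left) and as a percentage of recovered reads (right); points are libraries with their replicate number, lines are group means, and the vertical axes do not start at 0. On the left the 6 allergen libraries are under both untreated ones (55025 to 56710 against 57071 and 60071), and on the right the groups overlap.

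Each extract was then compared with untreated cells gene by gene, to ask whether exposure changed ribosomal protein mRNAs. The 3 comparisons share their 2 untreated libraries, so their counts are not independent. With HDM 39 of 81 members fell and 0 rose, where 21.9% of all 11455 tested genes were called lower. With Grass 30 fell and 0 rose, where 25.4% of tested genes were called lower. With Cat 32 fell and 0 rose, where 13.6% were. Among all tested genes the share called higher was 9.22% (HDM), 10.4% (Grass) and 4.34% (Cat). A gene was called by limma on log2(value + 0.1) at a Benjamini-Hochberg adjusted p under 0.05.

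The changes were small and alike. Among the members the median log2 fold change was −0.080 (HDM), −0.069 (Grass) and −0.080 (Cat), or 5.39%, 4.67% and 5.39% lower. Over all tested genes it was −0.035, −0.038 and −0.025. The fold change was below 0 for 75, 80 and 80 of the 81 members. The largest in size, of Rpl34, corresponded to 1.17-fold and was not called. By subunit, the HDM calls were 23 of 49 genes of the 60S subunit and 16 of 32 of the 40S subunit. The Grass calls were 20 and 10, and the Cat calls 18 and 14.

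These counts were set beside those of other genes at the same level. Precision grows with level, and among all tested genes with a mean of at least 100 the share called lower was 46.3% (HDM), 55.1% (Grass) and 31.1% (Cat). The members' shares were 48.1%, 37.0% and 39.5%, so they lay near that background with HDM, below it with Grass and somewhat above it with Cat. The genes of that level had median log2 fold changes of −0.072, −0.090 and −0.054. In the range of 400 to 800, which holds 42 members, 47.6% of the members and 56.3% of 238 other genes were called lower with HDM. With Grass the shares were 42.9% and 69.3%, and with Cat 45.2% and 36.6%. The fall of the members on the deposited scale was therefore not read as a result particular to ribosomal protein genes.

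**Figure D2:**
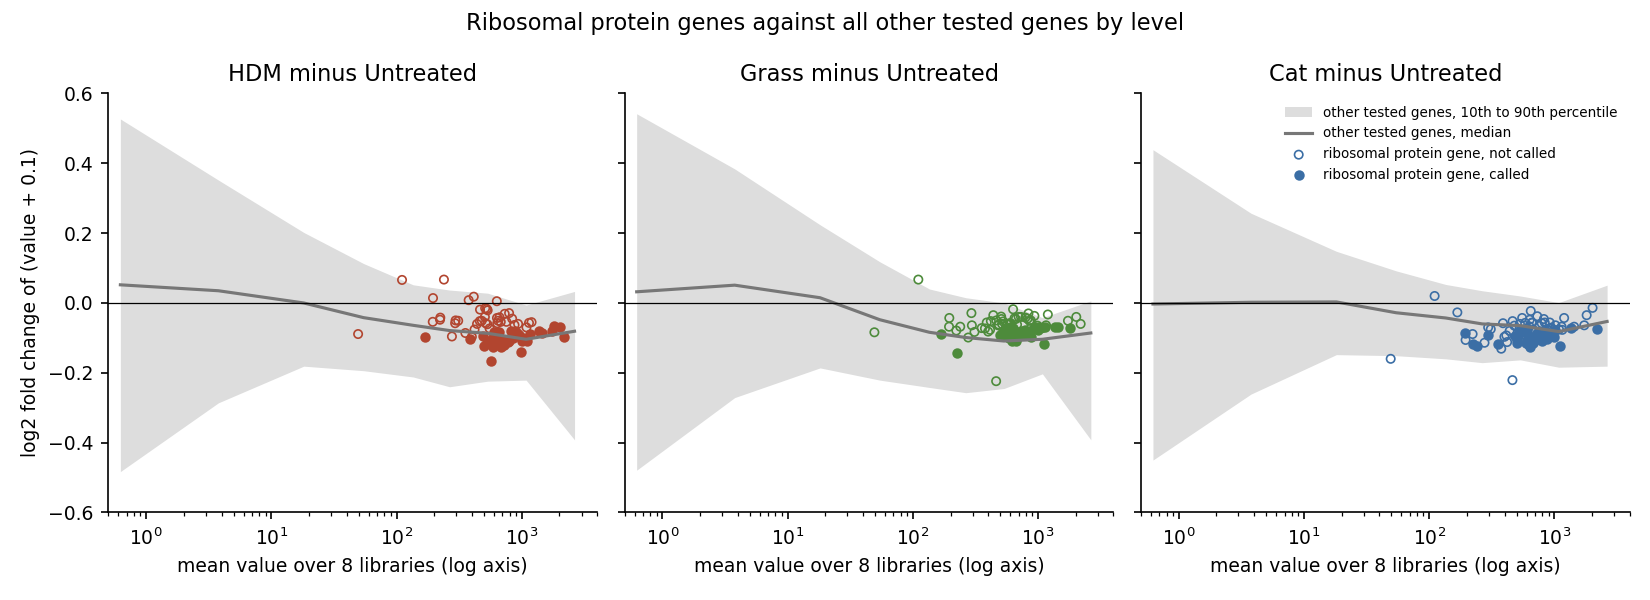
Log2 fold change of each of the 81 ribosomal protein genes with HDM, Grass and Cat against Untreated (vertical axes) over the mean value in 8 libraries (horizontal axes, log scale); filled points are called by limma, the line is the median and the grey band the 10th to 90th percentile of other tested genes by level. The medians of the points are −0.080, −0.069 and −0.080. In the range of 400 to 800 the members' medians are −0.075 (HDM), −0.070 (Grass) and −0.082 (Cat). Those of other genes there are −0.087, −0.109 and −0.065.

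The count also depended on how libraries are scaled. With TMM factors in place of the deposited ones, 12 members were lower and 2 higher with HDM, 2 and 1 with Grass, and 5 and 0 with Cat. With reads per library total, a scaling chosen after seeing the data, 1 was lower and 3 higher with HDM, 0 and 1 with Grass, and 0 and 0 with Cat. On that scale 9.4%, 10.7% and 6.4% of all tested genes were lower, and 2354, 2775 and 1310 genes higher. The members' median log2 fold changes were then −0.001, 0.021 and −0.024, so the sign with Grass turned. Of the 39 HDM calls 27, of the 30 Grass calls 28 and of the 32 Cat calls 25 were lost under each of 4 other scalings (TMM, DESeq2 size factors, upper-quartile factors and library totals). Over all genes, 29.6% of the HDM calls were higher on the deposited scale, 47.0% with TMM and 68.7% with library totals. For Grass these shares were 29.1%, 46.6% and 69.5%, and for Cat 24.1%, 41.1% and 64.2%. Without the second untreated library the members' median log2 fold changes were −0.034, −0.028 and −0.046, against −0.029, −0.031 and −0.021 over all tested genes. Without the first they were −0.113, −0.11 and −0.116, against −0.039, −0.045 and −0.032 over all tested genes.

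**Figure D3:**
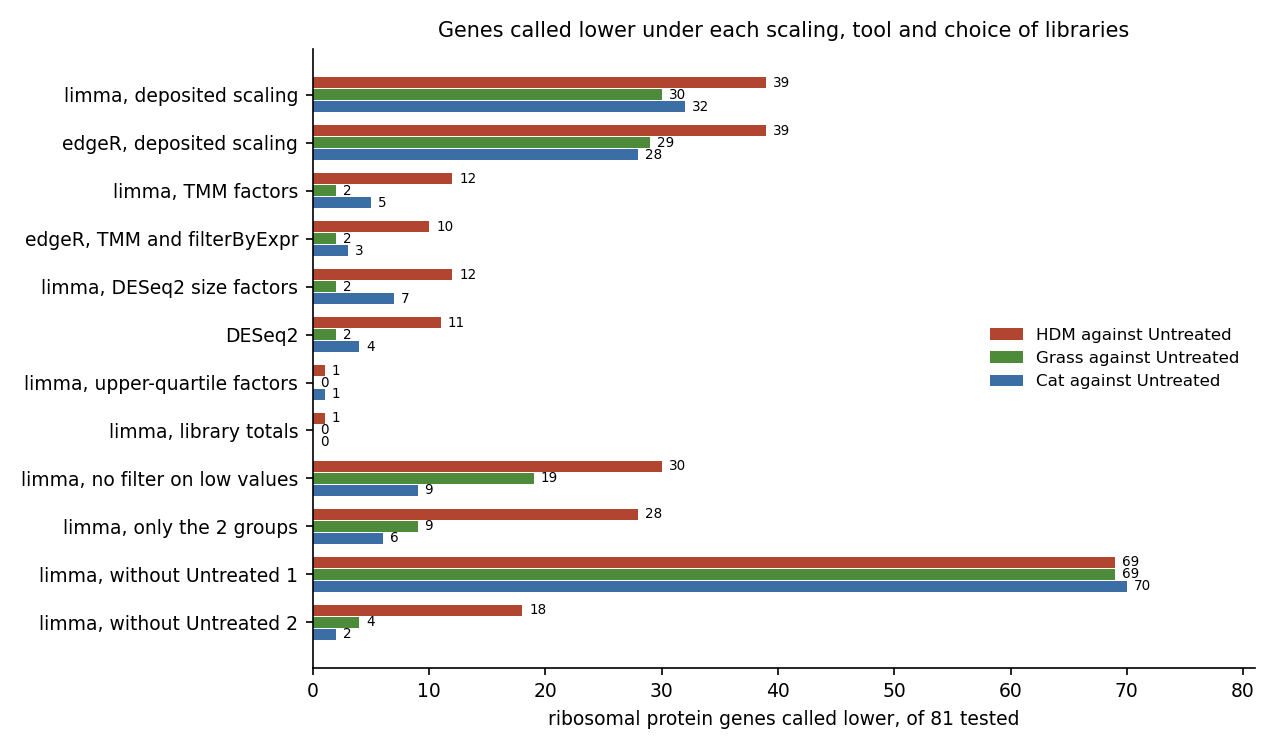
Number of the 81 tested ribosomal protein genes called lower (horizontal axis) with HDM, Grass and Cat against Untreated under each scaling, tool and choice of libraries (down the page). Counts on the deposited scale are 39, 30 and 32 with limma, and at most 1 with upper-quartile factors or library totals.

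The members called lower with HDM by the largest amount were Rps14, Rpl13a, Rpl41, Rpl17 and Rpl35. Rpl13a, which in human cells leaves the ribosome after interferon gamma to silence inflammatory mRNAs, had values of 970.2 and 921.2 in HDM, 980.5 and 1012 in Grass, 978.0 and 968.4 in Cat, and 1011 and 1074 in Untreated libraries. All but the second Grass library lay below both untreated ones. The log2 fold change with HDM was −0.140 ± 0.030 (SE, limma adjusted p = 0.00085), and Rpl13a also fell with Cat. Rpl41, which encodes the shortest ribosomal protein, fell by 0.126 with HDM (adjusted p = 0.00214). Rpl17 and Rpl35, which lie around the exit of the peptide tunnel, fell by 0.125 and 0.122 (adjusted p = 0.00256 and 0.00266). The HDM calls of Rpl13a, Rpl41, Rpl17 and Rpl35 were lost without the second HDM library, where 5 members in all were called, and under upper-quartile factors and library totals.

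With Grass the leading members were Rpl38, Rpl5, Rps16, Rpl23a and Rps10. Rpl38, which is needed in mouse embryos for the translation of Hox mRNAs, had values of 212.4 and 214.0 in Grass libraries, against 223.1 and 248.1 in Untreated libraries. Its log2 fold change was −0.142 ± 0.038 (SE, limma adjusted p = 0.00597). Rps16, a 40S protein, fell by 0.110 (adjusted p = 0.00382), Rpl23a, at the tunnel exit, by 0.108 (adjusted p = 0.00786), and Rps10, a 40S protein near the mRNA entry, by 0.101 (adjusted p = 0.00665). None of the 30 calls with Grass was kept in all 8 omissions of a library, and without the first Grass library 0 members were called.

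With Cat the leading members were Rps27, Rpl5, Rps28, Rpl32 and Rpl35a. Rps27, a 40S zinc-finger protein, had values of 611.4 and 604.1 in Cat libraries, against 632.7 and 694.1 in Untreated libraries. The 2 groups did not overlap, and the log2 fold change was −0.125 ± 0.040 (SE, limma adjusted p = 0.0457). Rpl32 and Rpl35a, both of the 60S subunit, fell by 0.118 each (adjusted p = 0.00637 and 0.018). Without the second Cat library 0 members were called, and without the first 11.

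Rpl5 and Rpl11 bind 5S ribosomal RNA and, when ribosome assembly fails, inhibit Mdm2 and so stabilise p53. Rpl5 had values of 1097 and 1082 in HDM, 1067 and 1100 in Grass, 1082 and 1076 in Cat, and 1136 and 1216 in Untreated libraries, with all 6 allergen libraries below both untreated ones. It fell by 0.110, 0.118 and 0.124 with HDM, Grass and Cat (limma adjusted p = 0.00432, 0.00198 and 0.00304). The call with HDM was lost without the second HDM or the second untreated library, that with Grass without the first Grass library and that with Cat without the second Cat library, and all 3 were lost with library totals. Rpl11 was not called, with log2 fold changes of −0.041, −0.046 and −0.056. Over all members, 28 of 81 had all 6 allergen libraries below both untreated ones, where 25.2% of all tested genes did. For this count the share among genes at the members' level was not computed. By single comparison the groups did not overlap, in the lower direction, for 56 (HDM), 41 (Grass) and 63 (Cat) members, where 41.1%, 42.2% and 36.0% of all tested genes did not. Among tested genes with a mean of at least 100 these shares were 67.3%, 72.3% and 58.6%, against 69.1%, 50.6% and 77.8% of the members. The members' share thus lay near that background with HDM, below it with Grass and above it with Cat.

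The acidic stalk recruits the translation factors that hydrolyse GTP. Its base, Rplp0, had values of 2131 and 2129 in HDM, 2148 and 2220 in Grass, 2170 and 2154 in Cat, and 2239 and 2317 in Untreated libraries, so every allergen library lay below both untreated ones. It fell by 0.097 with HDM and by 0.075 with Cat (limma adjusted p = 0.00385 and 0.035), and had a log2 fold change of −0.060 with Grass (adjusted p = 0.0581). Rplp1 and Rplp2, the proteins that form the flexible arms, were not called in any comparison. Their log2 fold changes were −0.029, −0.042 and −0.058 for Rplp1 and 0.005, −0.018 and −0.067 for Rplp2.

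Of 11 members known for roles outside the ribosome, lower calls numbered 8 (HDM), 3 (Grass) and 7 (Cat), or 72.7%, 27.3% and 63.6%, against 46.3%, 55.1% and 31.1% of tested genes with a mean of at least 100. Rps3, which takes part in DNA repair and in NF-kappaB binding in human cells, had values of 976.0 and 976.4 in HDM, 976.9 and 1022 in Grass, 1010 and 986.5 in Cat, and 1042 and 1066 in Untreated libraries. It fell by 0.110, 0.077 and 0.078 with the 3 extracts. Rps6, the target of S6 kinase, fell by 0.100 with HDM and by 0.069 with Grass, and Rpsa fell by 0.080 with HDM. Rpl26, which binds p53 mRNA, and Rps27a, made as a fusion with ubiquitin, each fell with HDM and Cat, by 0.096 and 0.096 and by 0.080 and 0.085. Rps19, mutated in Diamond-Blackfan anaemia in people, fell by 0.096 with Cat. Rpl22, which limits its own paralog, was not called, with log2 fold changes of −0.050, −0.064 and −0.070. The HDM calls of Rpsa, Rps6, Rpl26 and Rps27a were lost under each of the 4 other scalings. So were the Grass calls of Rps3 and Rps6, and the Cat calls of Rps3, Rpl13a, Rpl26, Rps27a, Rps14 and Rps19. The other calls of these 11 members were kept under 2 or more of the 4.

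The paralogs were far below their partners, apart from Rpl36al. Identity was computed over annotated coding sequences (GENCODE M21). Rpl22l1 had a mean value 16.7% of that of Rpl22, with 68.2% identical coding bases, and Rps27l 17.5% of Rps27, with 76.2% identical bases. Rpl7l1 had 19.2% of Rpl7 (54.0% identical). Rpl36al had 87.5% of Rpl36a (87.7% identical), the pair with the highest identity, for which the split of reads is uncertain. These ratios are of values and not of levels per length.

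Of the 4 paralogs tested, Rpl7l1 fell with HDM and Grass, by 0.097 and 0.090, and Rpl36al fell with Cat, by 0.087. Rpl22l1 had log2 fold changes of −0.089, −0.084 and −0.160 and was not called. Among the 8 partners, lower calls numbered 3 (HDM), 2 (Grass) and 3 (Cat), or 37.5%, 25% and 37.5%, against 46.3%, 55.1% and 31.1% of tested genes with a mean of at least 100. Rpl7 and Rpl3 fell with each extract, by 0.096, 0.097 and 0.102 and by 0.081, 0.068 and 0.073, Rpl10 fell with HDM by 0.090, and Rps27 fell with Cat. Rps4x, Rpl36a and Rpl39 were not called. Rps27rt, a retrogene that the naming rule does not cover, was at 0.

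Rps27l, a p53 target gene, was the one member with a fold change above 0 for all 3 extracts. Its values were 113.1 and 112.3 in HDM, 114.7 and 110.9 in Grass, 111.7 and 106.7 in Cat, and 108.5 and 106.8 in Untreated libraries. Both HDM and both Grass libraries lay above both untreated ones, while Cat overlapped with them. The log2 fold changes of 0.066, 0.067 and 0.020 were not called on the deposited scale (limma adjusted p = 0.141, 0.124 and 0.737). With HDM and Grass the gene was called higher under TMM, DESeq2 size factors, upper-quartile factors and library totals and by edgeR with TMM factors, but not by DESeq2.

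Rps28 and Rps14 were the only members called between extracts on the deposited scale. Rps28, a 40S protein encoded by the shortest annotated transcript among the members (271 bases), had values of 256.6 and 254.3 in HDM, 224.6 and 240.8 in Grass, 224.9 and 222.6 in Cat, and 234.2 and 253.8 in Untreated libraries. The HDM libraries were the highest, with the second untreated library just under them. Against Cat, Rps28 was higher with HDM by 0.191 ± 0.036 on the log2 scale (SE, limma adjusted p = 0.00108), where 2.94% of all tested genes were called higher. The call was kept without each of the 8 libraries in turn and under 4 other scalings. Against Grass, Rps28 was higher with HDM by 0.135 ± 0.036 (adjusted p = 0.0489), where 1.69% of tested genes were called higher, and this call was lost without either HDM library, the first Grass library or either Cat library, with adjusted p up to 0.455.

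Against untreated cells Rps28 had a log2 fold change of 0.067 with HDM (limma adjusted p = 0.166), −0.068 with Grass (adjusted p = 0.148) and −0.124 with Cat (adjusted p = 0.0188). The call with Cat was lost without either Cat library and without the second untreated library. It was also lost under TMM, upper-quartile factors and library totals, and kept with DESeq2 size factors.

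Rps14, a 40S protein whose loss underlies the anaemia of 5q- syndrome in people, went the other way. Its values were 534.8 and 537.5 in HDM, 569.1 and 582.7 in Grass, 575.8 and 561.7 in Cat, and 590.3 and 611.8 in Untreated libraries. The HDM libraries were below all 6 others, and the 2 untreated libraries above all 6 others. Against untreated cells the log2 fold change with HDM was −0.165 ± 0.027 (SE, limma adjusted p = 3.914e-05), a call kept in all 8 omissions and under 4 other scalings. Among the 39 members called lower with HDM, Rps14 was the only one kept under those 4 scalings. Against Grass the log2 difference with HDM was −0.103 ± 0.027 (adjusted p = 0.0405), where 0.62% of tested genes were called lower, and this call was lost without any one of the HDM, Grass or Cat libraries, with adjusted p up to 0.418. Against Cat the log2 difference was −0.085 (adjusted p = 0.0539).

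Between HDM and Cat 0 other members were called, where 4.82% of tested genes were called lower. Between Grass and Cat 0 of 81 members were called by limma, where 3.58% of tested genes were called higher and 8.23% lower. At an unadjusted p under 0.05, 1 member was higher and 0 lower, and edgeR with TMM factors and DESeq2 called 0. The members' median differences were −0.007 for HDM minus Grass, 0.006 for HDM minus Cat and 0.011 for Grass minus Cat.

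**Figure D4:**
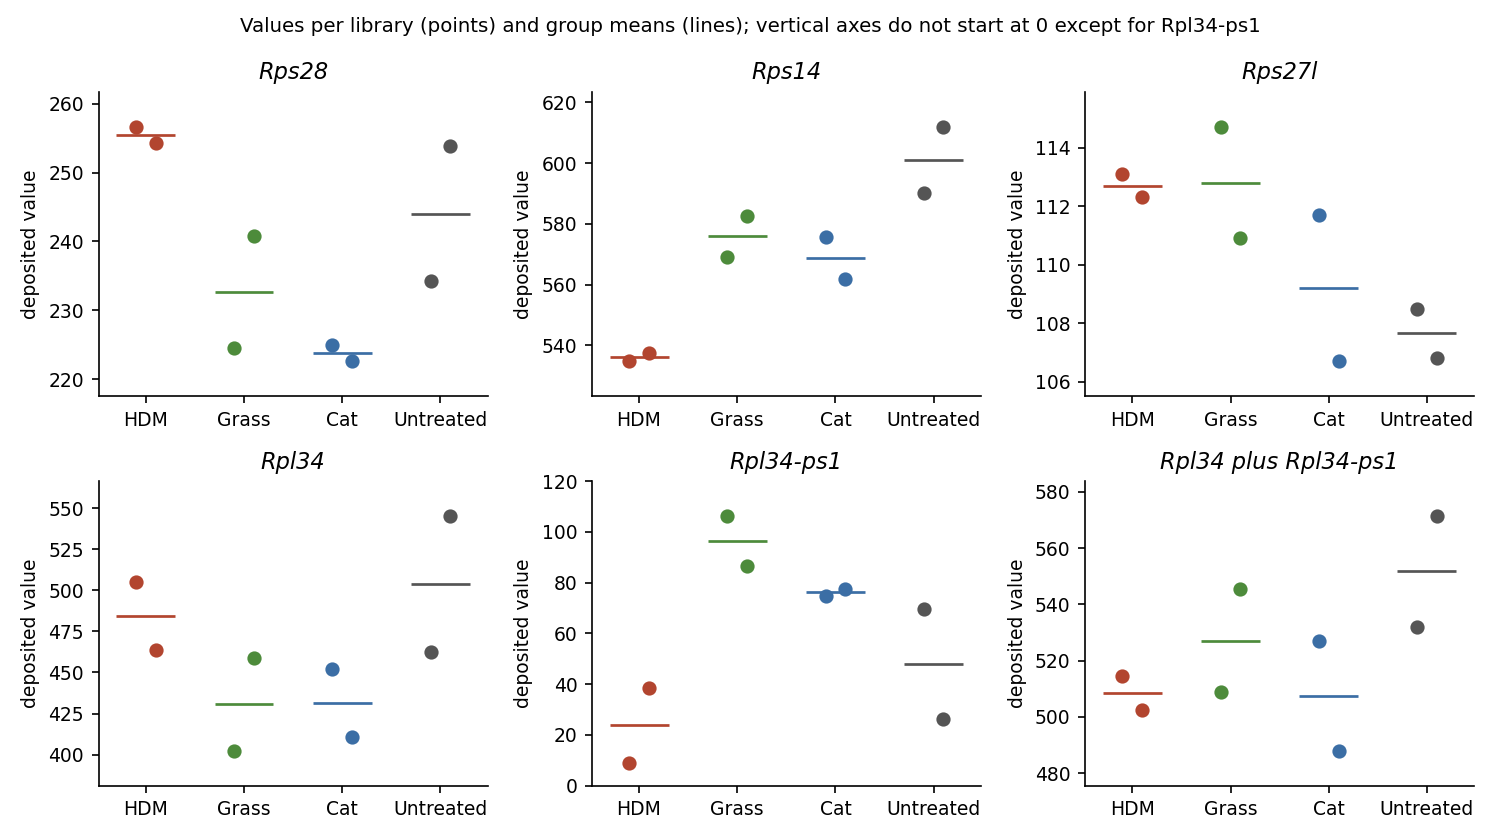
Deposited value of Rps28, Rps14, Rps27l, Rpl34, Rpl34-ps1 and the sum of Rpl34 and Rpl34-ps1 in each library (vertical axes, which start at 0 only for Rpl34-ps1), by group; points are the 2 libraries and lines the means. Rps28 is highest in HDM libraries (256.6 and 254.3), Rps14 is lowest there (534.8 and 537.5), and Rpl34 and its pseudogene vary in opposite directions between the 2 libraries of each group.

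Rpl34 had the largest fold changes in size among the members but was not called. Its values were 505.3 and 463.7 in HDM, 402.5 and 458.8 in Grass, 451.9 and 410.6 in Cat, and 462.3 and 545.0 in Untreated libraries, so replicates differed as much as groups. The row named as its pseudogene, Rpl34-ps1, had 9.11 and 38.6 in HDM, 106.3 and 86.6 in Grass, 74.9 and 77.4 in Cat, and 69.8 and 26.3 in Untreated libraries. In each group the library with less Rpl34 had more of the pseudogene, and near-identical copies share reads, so the split between these 2 rows is uncertain. Their sum was 514.4 and 502.3 in HDM, 508.7 and 545.4 in Grass, 526.8 and 488.0 in Cat, and 532.1 and 571.3 in Untreated libraries. The SE of its log2 fold change was 0.047, against 0.124 for Rpl34 alone, and the fold changes were −0.117, −0.066 and −0.121, none of them called.

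In the authors' deposited tables of changed genes, 0 of the 85 members are listed for any extract. The smallest fold listed in the authors' deposited tables was 1.502 (HDM), 1.501 (timothy grass) and 1.507 (cat) in size, above the largest difference of a member from untreated cells here, 1.17-fold, so the count of 0 tells nothing further about the members. The same authors' deposited tables list Rpl34-ps1 with folds of −1.97 for HDM, 2.07 for timothy grass and 1.61 for cat. In the limma fit Rpl34-ps1 was not called in any of the 3 comparisons. The annotation names 293 pseudogenes for 61 members and the gene table holds 7 such rows, so for other members a share of reads from copies cannot be told apart.

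The members' difference between HDM and Cat was larger for shorter transcripts. Across the 81 genes Spearman's rho between annotated length and the log2 difference HDM minus Cat was −0.48, against −0.02 across 2384 genes with a mean of at least 100. This is a description across genes that share the same 4 libraries. Of the differences computed, HDM minus Cat had the rho largest in size among the members. It was −0.35 for Grass minus Cat, 0.34 for Cat minus Untreated, −0.27 for HDM minus Untreated, −0.24 for HDM minus Grass and −0.01 for Grass minus Untreated. In HDM minus Cat the 31 members under 600 bases had a median difference of 0.032, and the 50 longer ones −0.009. The largest differences between HDM and Cat were of Rps28 with 0.191, Rpl34 with 0.168, Rpl30 with 0.139, Rpl39 with 0.120 and Rps29 with 0.111, of which only Rps28 was called. The 2 untreated libraries also differed by length, with rho of −0.35 across the members and −0.25 across the 2384 genes, a difference between libraries of 1 group. The part of length in the result was not tested.

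**Figure D5:**
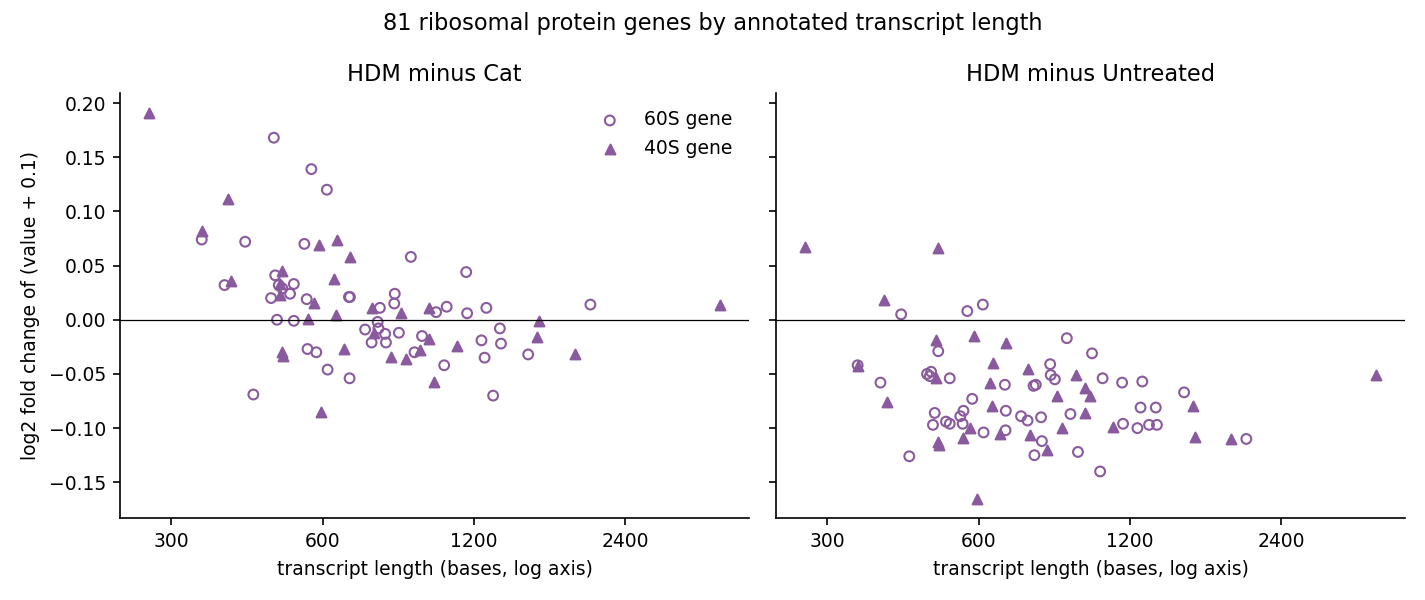
Log2 difference HDM minus Cat (one panel) and HDM minus Untreated (the other) for the 81 ribosomal protein genes over annotated transcript length in bases (horizontal axis, log scale); open circles are 60S and triangles 40S genes. Rps28, the shortest at 271 bases, is highest in HDM minus Cat at 0.191. In that panel the medians are 0.032 under 600 bases and −0.009 for longer genes, and in HDM minus Untreated −0.058 and −0.081.

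Members with and without a TOP match were then set side by side. Among the 61 tested members with a promoter, the 36 with a match had median log2 fold changes of −0.066, −0.070 and −0.084 with HDM, Grass and Cat, and the 25 without one −0.086, −0.068 and −0.075. Members called lower were 14, 15 and 14 of the 36 with a match, and 15, 8 and 9 of the 25 without. Among all tested genes with a mean of at least 100 the shares called lower were 46.3%, 55.1% and 31.1%. No test was made of the differences between members with and without a match.

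Other genes with TOP mRNAs were mostly of the translation machinery. They were called lower about as often as all tested genes with a mean of at least 100. Of 18 tested, all with a mean of at least 100, lower calls on the deposited scale numbered 9 (HDM), 11 (Grass) and 6 (Cat), or 50%, 61.1% and 33.3%, against 46.3%, 55.1% and 31.1% of tested genes of that level. Higher calls were 0, while with library totals lower calls were 1, 0 and 1 and higher calls 4, 3 and 0. Eef1a1, the elongation factor that brings tRNA to the ribosome, had values of 9068 and 9064 in HDM, 9155 and 9343 in Grass, 9242 and 9253 in Cat, and 9690 and 10240 in Untreated libraries, and fell by 0.136, 0.107 and 0.107. Eif3h, an initiation factor subunit, fell by 0.130, 0.130 and 0.119. Vim, the intermediate filament vimentin, fell by 0.132, 0.114 and 0.194, and Eif2s3x, an initiation factor 2 subunit, by 0.072 with HDM and 0.109 with Grass. Fau, which encodes a ribosomal protein fused to a ubiquitin-like sequence and lies outside the naming rule, fell by 0.122 with HDM and 0.088 with Grass.

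Of 14 genes that regulate TOP mRNAs, higher calls numbered 3 (HDM), 3 (Grass) and 2 (Cat), and lower calls 3, 5 and 0, against lower calls of 0, 1 and 0 with library totals. The lower calls were 21.4%, 35.7% and 0.0% of the list, against 21.9%, 25.4% and 13.6% of all tested genes, and the higher calls 21.4%, 21.4% and 14.3%, against 9.22%, 10.4% and 4.34%. Ddit4, an inhibitor of mTOR complex 1, had values of 58.7 and 52.3 in HDM, 54.4 and 54.8 in Grass, 46.2 and 45.4 in Cat, and 46.4 and 41.3 in Untreated libraries. It rose by 0.338 with HDM and by 0.317 with Grass (limma adjusted p = 9.518e-05 and 0.000151), and had a log2 fold change of 0.063 with Cat. Deptor, another mTOR inhibitor, rose by 0.132, 0.323 and 0.189. Larp1, which holds TOP mRNAs, fell by 0.112 with Grass, and Larp4, which binds poly(A) tails, fell by 0.116 with HDM and 0.180 with Grass.

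Of 8 factors that bind promoters of ribosomal protein genes, lower calls numbered 6 (HDM), 5 (Grass) and 1 (Cat) on the deposited scale, and 1, 2 and 1 with library totals, where 1, 1 and 0 were called higher. On the deposited scale this was 75%, 62.5% and 12.5% of the list, against 21.9%, 25.4% and 13.6% of all tested genes and 46.3%, 55.1% and 31.1% of those with a mean of at least 100, which 4 of the 8 had. Sp1 had values of 162.6 and 159.4 in HDM, 166.3 and 162.6 in Grass, 172.3 and 173.2 in Cat, and 185.5 and 196.0 in Untreated libraries, so each of the 6 allergen libraries was under both untreated ones. It fell by 0.244, 0.214 and 0.143, and by 0.165, 0.123 and 0.087 with library totals, where it was called for each extract. Yy1, Max and Gabpb1, a GABP subunit, fell with HDM and Grass. Their log2 fold changes were −0.085 and −0.187 for Yy1, −0.106 and −0.146 for Max, and −0.150 and −0.171 for Gabpb1. Of 6 chaperones and assembly factors of ribosomal proteins, 1 fell with HDM (Grwd1, by 0.098). With Grass 3 of them fell (Ltv1 by 0.105, Bccip by 0.093 and Heatr3 by 0.083), and with Cat 0 did. Among all tested genes 21.9%, 25.4% and 13.6% were called lower, and 1 of the 6 genes had a mean of at least 100. Under TMM factors or library totals 0 of the 6 were called.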

How the data were processed

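Per the labels' protocols, mRNA of 8 DC2.4 samples was sequenced as stranded libraries. Tools named in the submitters' processing notes are Bowtie2 2.1.0, RSEM 1.2.15, edgeR, with the build mm9. Whether counting used strand is not given in the sources used here. The deposited gene table holds a signal that the authors scaled by library depth, not raw counts. Every value was a whole number of reads times a factor of its library (within 0.001), so reads were recovered for alternatives and shares. The authors' deposited comparison tables give a fold score with p-values and q-values (FDR).

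Values were tested with limma 3.58.1 (R 4.3.3, trend and robust) on log2(value + 0.1), on the 11455 rows with a value of at least 0.5 in at least 2 libraries, in one fit of all 8 libraries (4 residual degrees of freedom). Benjamini-Hochberg adjustment ran over all rows of each comparison, with calls at an adjusted p under 0.05. Fold changes are on that log2 scale. The test was checked on simulated data. Replicates differed beyond sampling noise (chi-square per degree of freedom 2.22 to 4.42). Alternatives were edgeR 4.0.16 and DESeq2 1.42.0 on recovered reads, other scalings, a pseudocount of 1, no filter, the 2 groups alone, the replicate number as a block and each library left out.

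Members and lists were chosen with earlier results of these data known. Genes named were the 5 of highest mean and the 3 of lowest, up to 5 called members per direction against Untreated and up to 3 between extracts by fold change with libraries not overlapping, all stalk, paralog, partner and other-role members, and up to 4 of each further list by p. Further members were named after their values were seen (Rpl30, Rpl34 and Rps29). Some genes are not reported here. Identity between paralogs was computed over coding bases, since protein sequences were not used here.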

Additional observations from a re-analysis of the deposited data

Results flagged for a closer look

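The response of 2 members differed between extracts by the test of the difference itself. For Rps28 the log2 difference HDM minus Cat was 0.191 (limma adjusted p = 0.00108, range over the alternatives 7.28e-07 to 0.0346) and HDM minus Grass was 0.135 (adjusted p = 0.0489, range 0.00129 to 0.455). Both HDM libraries lay above all 4 libraries of the other extracts. Rps14 was lower with HDM than with Grass, with a log2 difference of −0.103 (adjusted p = 0.0405, range 0.00302 to 0.418), and both HDM libraries lay below both Grass ones. The part that transcript length or shared copies had in these differences was not tested.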

How the results depend on the processing

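Members called lower (39 with HDM, 30 with Grass, 32 with Cat) depended on the scaling. They numbered 12, 2 and 5 with TMM factors, 12, 2 and 7 with DESeq2 size factors, 1, 0 and 1 with upper-quartile factors, 1, 0 and 0 with library totals, 10, 2 and 3 with edgeR and TMM, and 11, 2 and 4 with DESeq2. Members called higher with HDM were 2 with TMM, DESeq2 size factors, upper-quartile factors and edgeR with TMM, and 3 with library totals, and with Grass 1 under each of these. Without the filter 19 members were lower with Grass and 9 with Cat, and with the 2 groups alone 9 and 6. The cause was not tested.

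Between extracts, HDM minus Grass had 0 members higher with upper-quartile factors, a pseudocount of 1, no filter or DESeq2, and 4 with the 2 groups alone. It had 0 lower without the filter or with the block, and 2 with the 2 groups alone. HDM minus Cat had 2 higher with library totals, and 6 higher and 2 lower with the 2 groups alone. Grass minus Cat had 2 higher with upper-quartile factors or library totals.

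Leaving out each library gave 5 to 69 members lower and 0 to 3 higher with HDM, 0 to 69 and 0 to 0 with Grass, and 0 to 70 and 0 to 0 with Cat. For HDM minus Grass it gave 0 to 3 higher and 0 to 2 lower, for HDM minus Cat 1 to 4 and 0 to 2, and for Grass minus Cat 0 to 1 and 0 to 0. HDM calls were 20 and 5 without the first and second HDM library. Grass calls were 18 without either HDM library, 20 without either Cat library, 0 without the first Grass library and 29 without the second. Cat calls were 16 without either HDM library. Against Untreated, the highest counts of lower members came without the first untreated library. Without the second, the counts were below those of all 8 libraries for each extract. The members' median log2 fold changes were −0.113, −0.11 and −0.116 without the first, and −0.034, −0.028 and −0.046 without the second. A group left with 1 library is assumed to vary like the others.

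Fold changes below 0 numbered 75 (HDM), 80 (Grass) and 80 (Cat) on the deposited scale, 43, 25 and 73 with upper-quartile factors, and 41, 15 and 70 with library totals. Among named members called lower, the sign turned under upper-quartile factors and library totals for Rpl4 (0.006 and 0.012) and Rps2 (0.003 and 0.009) with HDM, and for Rpl3 (0.011 and 0.022), Rpl4 (0.007 and 0.019), Rps3 (0.002 and 0.014), Rps3a1 (0.01 and 0.021) and Rps6 (0.011 and 0.022) with Grass, and under library totals alone for Rpl32 (0.002) and Rpl7l1 (0.0) with Grass. The share of reads was 5.587% with HDM and 5.500% with Cat without the paralogs, and 5.043%, 5.111%, 4.950% and 5.035% in HDM, Grass, Cat and Untreated libraries without the 3 highest members.

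Deviations of replicates with the same number had correlations of −0.08 to 0.128 between groups. Among the tested members the second library exceeded the first for 79 in Untreated and 74 in Grass, but for 22 in HDM and 22 in Cat. The median log2 differences were 0.078, 0.048, −0.015 and −0.02. Whether libraries with the same number share more than that number was not tested. The fit with a replicate block called 39, 29 and 23 members lower. Counts with edgeR on the deposited scaling were 39, 29 and 28. Depth limits the 4 paralogs with few reads.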

Other observations

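Mitochondrial ribosomal protein genes, which encode the ribosome of the organelle, were described from the same fit. Of 77 tested, 8 fell and 2 rose with HDM, 9 fell and 4 rose with Grass, and 3 fell and 1 rose with Cat. The lower calls were 10.4%, 11.7% and 3.9% of the 77, against 21.9%, 25.4% and 13.6% of all tested genes. The higher calls were 2.6%, 5.2% and 1.3%, against 9.22%, 10.4% and 4.34%. Median log2 fold changes of the 77 genes were −0.029, −0.018 and −0.011. With library totals the medians were 0.050, 0.073 and 0.044, with 0, 1 and 0 lower and 12, 16 and 6 higher calls. Of all 11455 tested genes, 2354, 2775 and 1310 were called higher with library totals, and 9.4%, 10.7% and 6.4% lower.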
